A study of Danio rerio with 9 samples.

Results

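Normal zebrafish eyes were profiled at 27 and 24 hours post fertilization (hpf), a window in which the eye is an optic cup of dividing cells around a young lens. The comparison rests on 2 of the 9 arrays of the study, chosen by their titles: the 27 hpf control, whose eyes had no ethanol, and the 24 hpf sample, whose eyes were untreated and taken before any exposure began. All 15502 probe sets that are not spike or control features were compared, and they gave 8174 named genes. The other 7 arrays held ethanol eyes at 27, 30, 36 and 48 hpf and control eyes at 30, 36 and 48 hpf. Neither the dose of ethanol nor the number of embryos behind an array is given in the sources used here. All samples were total RNA from dissected eyes of Danio rerio embryos, with 1 array per condition and no replicate.

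The vertebrate eye forms as an outpocketing of the forebrain that folds into a cup. Its inner layer is a sheet of cycling retinal progenitors, held in that state by transcription factors such as Pax6, Six3 and Sox2 and by Notch signalling. The outer layer becomes the pigmented epithelium, and the overlying ectoderm gives the lens, which fills with crystallin proteins. Retinal ganglion cells are the earliest neurons to leave the cell cycle, followed by interneurons, photoreceptors and Müller glia.

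Each value is a MAS5 signal, the linear brightness of a probe set, and the deposited arrays all have the same trimmed mean. The median signal was 37.0 at 27 hpf and 37.8 at 24 hpf, and the ratio of the 3' to the 5' GAPDH probe sets, a sign of RNA integrity, was 2.54 at 27 hpf and 2.61 at 24 hpf. Over all 9 arrays that ratio lay between 1.83 and 2.67. The number of arrays limits the precision. Differences were taken as log2(signal + 5), 27 hpf minus 24 hpf, and a probe set was counted when the difference reached 2-fold and the brighter of the pair exceeded its array's median. On this scale the change of dim probe sets is understated. With 1 array a stage these counts describe a pair of arrays and carry no p-value.

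Eyes at 27 hpf and at 24 hpf showed nearly the same expression. Among 5175 named genes above the array median at either age, 99.7% differed by less than 2-fold and 96.7% by less than 1.5-fold. Over the 9301 probe sets in the upper 60% by brightness, the median probe set differed by a factor of 1.116, and 80.1% lay within 1.25-fold. Counted at 2-fold were 14 probe sets higher at 27 hpf (0.0903% of 15502) and 12 lower (0.0774%), 26 in all (0.168%). The same count was 109 between ethanol and control eyes at 27 hpf, 66 between ethanol eyes at 27 hpf and the 24 hpf eyes, 216 between 30 and 27 hpf controls, 227 between 36 and 30 hpf controls and 588 between 48 and 36 hpf controls. The 27 hpf control stood apart more often than its neighbour: it was the highest of the 9 arrays for 14.9% and the lowest for 16.5% of the kept probe sets, against 7.02% and 8.73% for the 24 hpf array. Among the 13 named genes counted at 2-fold, the 27 hpf ethanol array lay nearer to 24 hpf than to the 27 hpf control for 9. Over the kept probe sets it was also closer to 24 hpf, with a median absolute difference of 0.17 (log2) against 0.22 from the 27 hpf control. The 13 were picked by the difference between 27 and 24 hpf, so the count is not read as a trait of theirs. The standard deviation of the differences was 0.20 (log2) in the brightest 2325 of these probe sets and 0.32 in the dimmest 2326. Probe sets for the same gene, where 617 genes had several above the median, disagreed by a median of 0.22 (log2), with a 95th percentile of 0.68.

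**Figure D1:**
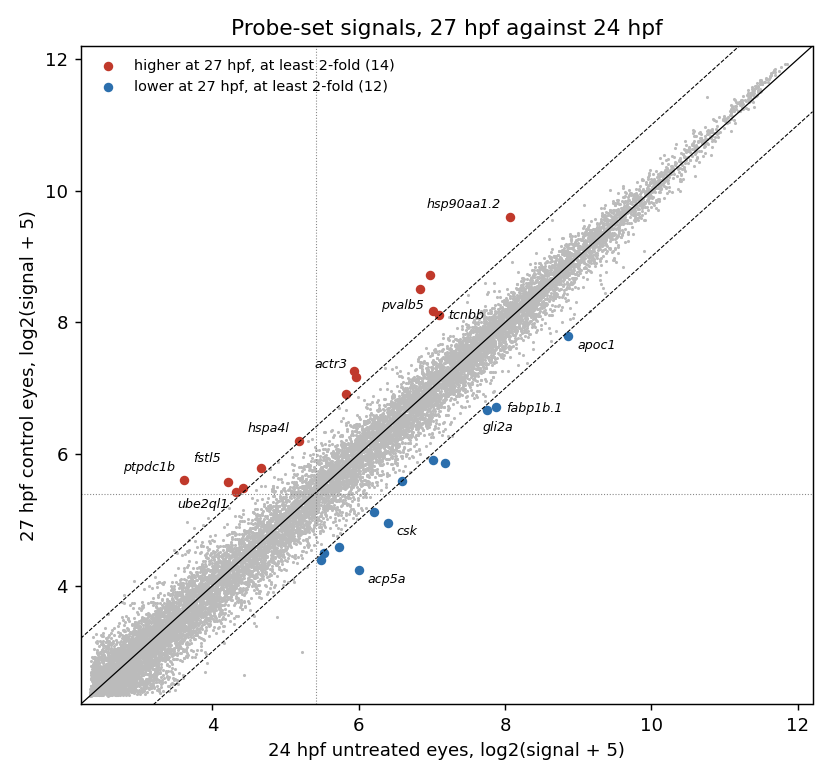
Signal of each of 15502 probe sets in 27 hpf control eyes (vertical axis) against 24 hpf untreated eyes (horizontal axis), both as log2(signal + 5). The solid line marks equal signal, the dashed lines 2-fold and the dotted lines the array medians; most points follow the solid line, with 14 red probe sets higher and 12 blue ones lower at 27 hpf.

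The brightest probe sets of these eyes belonged to the protein synthesis machinery. Signal depends on the probes as well as on the transcript, so the order among genes is one of probe brightness and not of transcript number. The large ribosomal subunit gene rpl19 had a signal of 3885 at 27 hpf and 3618 at 24 hpf. The ribosome-bound scaffold rack1 had 3754 at 27 hpf and 3475 at 24 hpf. COX1, the mitochondrially encoded catalytic subunit of cytochrome oxidase, had 3602 at 27 hpf and 3426 at 24 hpf. Among the 10 brightest genes were 8 cytosolic ribosomal proteins, among them rps23 with 3683 at 27 hpf and 3303 at 24 hpf. Of the 40 brightest, 34 were cytosolic ribosomal proteins and 2 were translation elongation factors, eef1a1l1 (3169 at 27 hpf and 2777 at 24 hpf) and eef2b (2965 and 2691). The others were rack1, COX1, naca, which guards nascent chains on the ribosome, and ran, the GTPase of nuclear transport.

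Of the 100 brightest genes, 67 encoded cytosolic ribosomal proteins, out of 71 such genes measured, and 5 encoded translation factors. The rest were spread over several groups, with 2 on the DNA replication and cell cycle list and 13 on none of the lists. The sliding clamp of DNA polymerase, pcna, had a signal of 2447 at 27 hpf and 2505 at 24 hpf, and the ribonucleotide reductase subunit rrm1 had 2659 at 27 hpf and 2393 at 24 hpf. The chromatin proteins hmgb2b (2683 at 27 hpf and 2541 at 24 hpf) and hmga1a (2608 and 2572), the tubulin tuba8l4 (2699 and 2659) and the constitutive chaperone hspa8 (2589 and 2403) were also among the 100. The beta crystallin crybb1 was the gene of an eye tissue in that set, with 2694 at 27 hpf and 2240 at 24 hpf. Signals over the 100 genes ran from 2148 to 3885, and 95 of them were above 0 in the difference, with a median of 0.12 (log2).

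Marker genes of the tissues of the eye were present, and so were those of neighbouring tissues. Retinal progenitor genes gave strong signals: fabp7a, a fatty acid binding protein of radial progenitors, had 1615 at 27 hpf and 1808 at 24 hpf, and pax6a, a regulator of eye identity, had 944 at 27 hpf and 921 at 24 hpf. The pigment enzyme dct, which acts in melanin synthesis, had 1219 at 27 hpf and 1086 at 24 hpf. Neuronal genes were present as well, with 541 at 27 hpf and 509 at 24 hpf for the brightest probe set of the RNA-binding protein elavl3. The difference was 0.09 there and 0.16 on the next brightest (522 at 27 hpf and 466 at 24 hpf). On 2 dimmer ones it was -0.70 and -0.22. Photoreceptor genes were close to or under the array medians at both ages; elovl4b, a fatty acid elongase, had 45.1 at 27 hpf and 29.4 at 24 hpf.

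**Figure D2:**
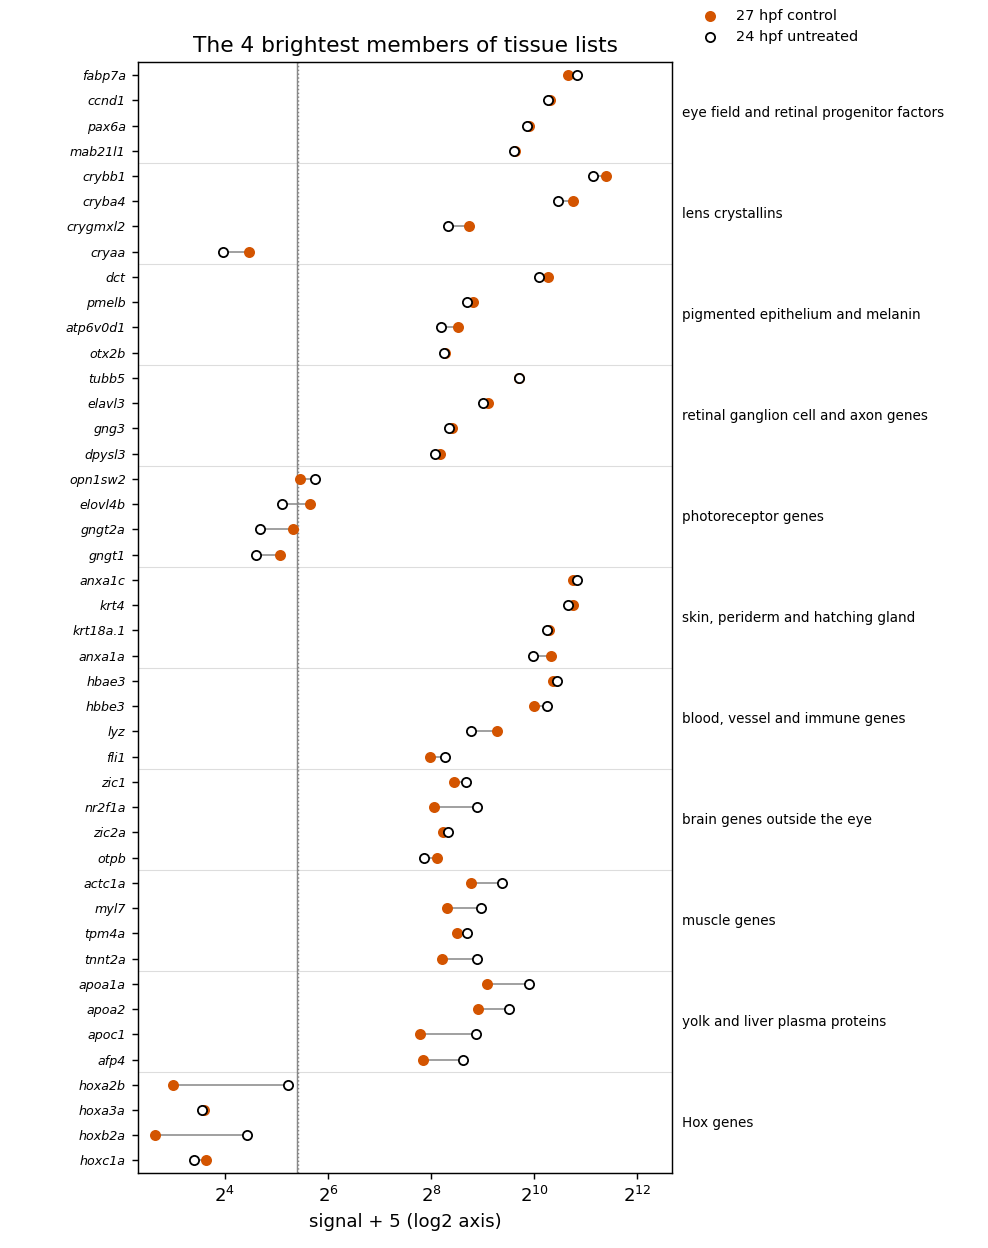
Signal + 5 on a log2 axis for the 4 brightest measured members of each of 11 tissue lists, in 27 hpf control eyes (filled) and 24 hpf untreated eyes (open), with vertical lines at the array medians. Retinal, pigment and neuronal genes and 3 of the 4 lens crystallins lie to the right of the medians, the other crystallin to the left. Photoreceptor genes lie near the medians and Hox genes to the left. Skin, blood, brain, heart muscle and yolk genes are also to the right.

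The samples also held RNA of tissues outside the eye. The embryonic alpha globin hbae3 had a signal of 1310 at 27 hpf and 1385 at 24 hpf, and the beta globin hbbe3 had 1018 at 27 hpf and 1204 at 24 hpf. The surface keratin krt4 had 1723 at 27 hpf and 1607 at 24 hpf. The heart myosin light chain myl7 had 314 at 27 hpf and 495 at 24 hpf. Genes on the list of brain genes outside the eye were bright too, such as the transcription factor gene zic1, with 343 at 27 hpf and 402 at 24 hpf. That list shares zic2a with the eye field list, so its members are not all particular to tissue outside the eye. By contrast, none of 42 Hox genes, which mark the hindbrain and trunk, was in the upper 60% by brightness, and all 42 lay below the median at both ages. Their summed signal was 75.5 at 27 hpf and 135 at 24 hpf, and the hindbrain gene hoxa2b had 2.93 at 27 hpf and 32.3 at 24 hpf.

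The brightest named gene that was 2-fold higher at 27 hpf encodes a chaperone. The gene hsp90aa1.2, which encodes a cytosolic Hsp90 alpha chaperone, had a signal of 775 at 27 hpf and 262 at 24 hpf, a difference of 1.55 (log2). It remained at 684, 423 and 651 in the 30, 36 and 48 hpf controls and had 692 in the 27 hpf ethanol eyes, so the 24 hpf array was the lowest of the 9. A second probe set gave a difference of 1.66, with 358 at 27 hpf and 110 at 24 hpf. The paralogue hsp90aa1.1, known in zebrafish for its role in muscle and named here after its values were seen, had 31.2 at 27 hpf and 30.7 at 24 hpf on a probe set of its own. The coding sequences of such paralogues are similar, and cross-hybridization between them was not tested. In bulk tissue, more cells of a type and more RNA per cell cannot be told apart.

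Hspa4l, an Hsp110-type partner of Hsp70, had a signal of 68.3 at 27 hpf and 31.3 at 24 hpf, a difference of 1.013. It was not on the chaperone list counted below. The stress-inducible hsp70.3 was just under 2-fold higher, with 53.8 at 27 hpf and 24.8 at 24 hpf. The mitochondrial chaperonin hspd1 had 1030 at 27 hpf and 685 at 24 hpf, and the Hsp40 co-chaperone dnajb1a had 72.9 at 27 hpf and 45.8 at 24 hpf. Of 30 kept chaperone and heat shock genes, 27 had a difference above 0, with a median of 0.15, where 2964 of all 5772 kept named genes were above 0 with a median of 0.01. The 33 measured were bright, with a median signal of 544 at 27 hpf, and the brightest 2325 kept probe sets had a median difference of 0.04. With quantile normalization of the 9 arrays, hspa8 and hsp90ab1 each stood at -0.01. How far brightness enters the chaperone count was not tested. At 1.5-fold, 4 of 33 measured chaperone genes were higher and none lower, beside 63 (0.771%) higher and 109 (1.33%) lower of all 8174 named genes, and 0.722% higher and 1.41% lower of all probe sets. The heat shock transcription factor gene hsf1 had 6.64 at 27 hpf and 6.65 at 24 hpf, far below the medians, and hsf2 had 208 at 27 hpf and 191 at 24 hpf.

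The other named genes that were higher by 2-fold had no single theme. Named genes counted this way were 8 in all (0.0979%). Parvalbumin pvalb5, a calcium buffer, had a signal of 285 at 27 hpf and 124 at 24 hpf, a difference of 1.17, and 330, 513 and 1136 in the controls at 30, 36 and 48 hpf. In the 27 hpf ethanol eyes it had 171. The transcobalamin gene tcnbb, of the vitamin B12 carrier family, had 271 at 27 hpf and 132 at 24 hpf, and 326, 738 and 1240 in the later controls, but 123 in the 27 hpf ethanol eyes. The secreted follistatin-like fstl5 had 42.8 at 27 hpf and 13.5 at 24 hpf, with 25.4, 46.3 and 177 later and 24.0 in the 27 hpf ethanol eyes. These 3 genes had their highest control signal at 48 hpf, and on the ethanol array of 27 hpf they lay nearer to the 24 hpf signal than to that of the 27 hpf control.

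For actr3, ptpdc1b and ube2ql1, all later controls lay below the 27 hpf signal. Actr3, which encodes Arp3 of the complex that branches actin filaments, had a signal of 140 at 27 hpf and 57.5 at 24 hpf, with 91.1, 132 and 82.4 in the controls at 30, 36 and 48 hpf. The phosphatase-domain gene ptpdc1b had 43.7 at 27 hpf and 7.29 at 24 hpf, with 10.998, 33.3 and 5.55 later. The ubiquitin-conjugating enzyme gene ube2ql1 had 38.1 at 27 hpf and 15.0 at 24 hpf, with 16.5, 33.7 and 26.7 later and 23.8 in the 27 hpf ethanol eyes. Both ptpdc1b and ube2ql1 were below the array median at 24 hpf, and the difference of ptpdc1b was 1.99 with a pseudocount of 5 and 1.22 with a pseudocount of 20.

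**Figure D3:**
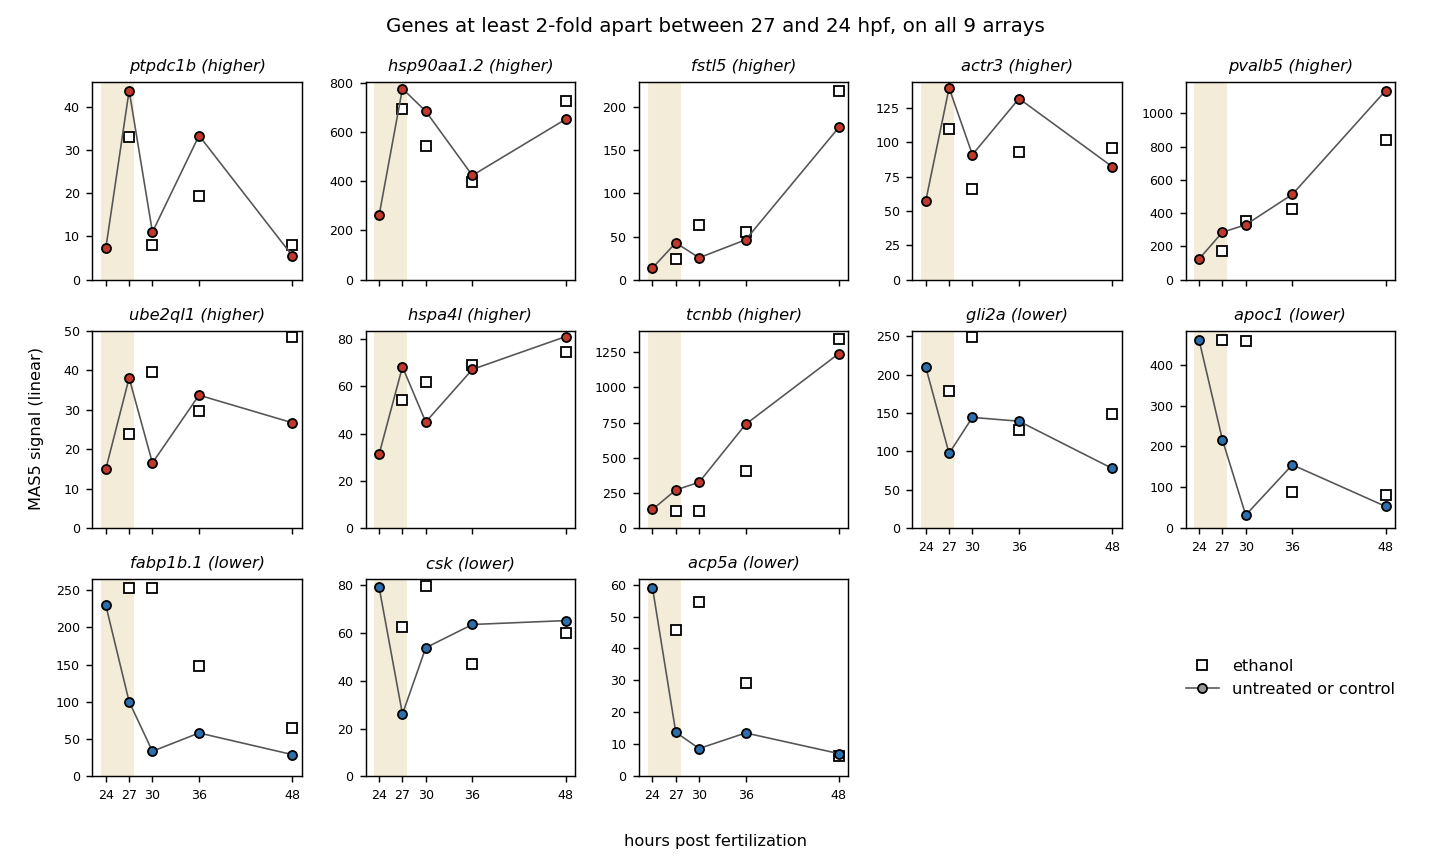
MAS5 signal (linear, vertical axis) against age in hpf for the 13 named genes at least 2-fold apart between 27 and 24 hpf, with open squares for ethanol eyes and joined circles for untreated or control eyes, red for genes higher and blue for genes lower at 27 hpf. The shaded band holds the 27 and 24 hpf ages. Pvalb5, tcnbb and fstl5 are highest among controls at 48 hpf. For 9 of the 13 genes the signal of 27 hpf ethanol eyes lies nearer to the 24 hpf signal than to that of the 27 hpf control. The genes were picked by the difference between 27 and 24 hpf, so this count is not read as a trait of theirs.

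Genes that were lower at 27 hpf included genes of yolk and liver plasma proteins. Named genes counted as 2-fold lower were 5 (0.0612%). The apolipoprotein gene apoc1 had a signal of 216 at 27 hpf and 461 at 24 hpf, a difference of -1.07, and the liver and gut fatty acid binding protein gene fabp1b.1 had 100 at 27 hpf and 229 at 24 hpf, a difference of -1.16. In the 27 hpf ethanol eyes apoc1 had 462 and fabp1b.1 had 252, and in the 30 hpf controls they had 31.8 and 33.7. Of 15 kept genes of the yolk and liver list, 14 were below 0 with a median of -0.54, and 7 of 30 measured were 1.5-fold lower, beside 1.33% of all named genes. Apoa1a had 535 at 27 hpf and 946 at 24 hpf, and the summed signal of the 30 measured was 2524 at 27 hpf and 4003 at 24 hpf. Their part in the other differences was not tested.

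Heart muscle genes were lower at 27 hpf too. Cardiac actin actc1a had a signal of 431 at 27 hpf and 662 at 24 hpf, and cardiac troponin T tnnt2a had 292 at 27 hpf and 470 at 24 hpf. Of 29 measured muscle genes, 4 were 1.5-fold lower, beside 1.33% of all named genes, and the median difference over the 29 was -0.12. Of the 11 kept, 9 were below 0, and 2 of the 11 were under the brightness limit at both ages. The summed muscle signal was 1848 at 27 hpf and 2546 at 24 hpf. Among blood, vessel and immune genes 10 of 15 were below 0, the median was -0.24, and the list had summed signals of 4249 at 27 hpf and 4668 at 24 hpf. Among skin genes 15 of 23 were above 0, the median was 0.09, and the list had summed signals of 12193 at 27 hpf and 11199 at 24 hpf. What part these tissues had in the differences of other genes was not tested.

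The 3 other named genes that were lower by 2-fold are not of that list. The gene gli2a, a transcription factor of the Hedgehog pathway, had a signal of 97.3 at 27 hpf and 210 at 24 hpf, with 144, 139 and 77.7 in the later controls. The kinase gene csk, whose product holds Src kinases inactive, had 26.1 at 27 hpf and 79.1 at 24 hpf, and between 53.9 and 65.3 in the later controls. The acid phosphatase gene acp5a, a marker of macrophages and bone-resorbing cells, had 13.8 at 27 hpf and 59.0 at 24 hpf, and between 7.14 and 13.6 in the later controls. For csk the 27 hpf control was the lowest of the 9 arrays, while for acp5a the 24 hpf array was the high one among the untreated and control arrays.

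A single probe set was 2-fold lower, while a brighter probe set of the gene was not, for gch2, hdac3 and dnmt3ba. Gch2, the enzyme that opens pteridine pigment synthesis, had differences of -1.10 and -0.89 on its 2 probe sets. For the histone deacetylase hdac3 the pair was -1.10 and -0.20, and for the DNA methyltransferase dnmt3ba it was -1.01 and -0.08. Probe sets that could not be named were 5 of the 14 higher and 4 of the 12 lower. Among these higher ones, a probe set whose identifier begins like that of hsp90aa1.2 had 415 at 27 hpf and 120 at 24 hpf. Another, whose identifier begins like that of hsp70.3, had 116 at 27 hpf and 51.9 at 24 hpf, a difference of 1.08. Just inside the threshold were dnmt3ba, tcnbb and hspa4l, at values given above. Nearest outside it, among named probe sets that passed the brightness filter, were ncalda and the Notch effector her4.5, each at -0.99. Next came capsla at 0.98, lrrn1 at -0.98 and hsp70.3 at 0.98.

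The 27 hpf difference was set against a residual spread in a fit over all 9 arrays, with stage and ethanol as terms. In it the 27 hpf ethanol array stands in as a second array of that age. The fit has 3 residual degrees of freedom. They hold only how the difference between ethanol and control eyes varied among the ages that have both arrays. The lone 24 hpf array is fitted exactly and adds nothing to that spread. The spread mixes technical variation with any ethanol response that changes with age, and these cannot be told apart. The p-values therefore cannot decide whether the 27 hpf difference exceeds the spread between replicate arrays. By limma with Benjamini-Hochberg adjustment, 0 of 9301 probe sets passed an adjusted p of 0.05 (0%), the lowest being 0.516. At an unadjusted p under 0.05 there were 129 probe sets (1.39%), 50 higher and 79 lower. Among them was hsp90aa1.2, with a fitted difference of 1.52 ± 0.24 (SE), an unadjusted p of 1.6e-04 and an adjusted p of 0.727.

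Several genes with the smallest p in that fit were higher on both 27 hpf arrays. The fit takes its 27 hpf value from both, so a small p favours genes on which they lie on the same side of 24 hpf. The ethanol array is therefore not separate support for these genes. The clock gene per2, which light induces in zebrafish, had a signal of 98.9 in control and 147 in ethanol eyes at 27 hpf, against 48.0 at 24 hpf. Its fitted difference was 1.00 ± 0.22 (SE), with an adjusted p of 0.9999. The DNA damage sensor ddb2 had 108 in control and 120 in ethanol eyes at 27 hpf, against 62.3 at 24 hpf, and a fitted difference of 0.68 ± 0.22 (SE). The keratin krt1-19e had 382 in control and 228 in ethanol eyes at 27 hpf, against 206 at 24 hpf, so its ethanol signal stood near that of 24 hpf.

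The genes with the smallest p among the lower ones include some that were below the 24 hpf signal on both 27 hpf arrays. They were picked by the same fit, so here too the ethanol array is not separate support. The sterol demethylase cyp51 had a signal of 17.97 in control and 26.2 in ethanol eyes at 27 hpf, against 39.9 at 24 hpf, and the ephrin receptor epha2a had 22.3 and 32.0 at 27 hpf, against 45.1 at 24 hpf. Smurf1, a ubiquitin ligase of the Bmp pathway, had 71.9 and 99.3 at 27 hpf, against 122 at 24 hpf. The heart and branchial arch factor hand2 had 22.9 and 29.7 at 27 hpf, against 48.5 at 24 hpf. The adjusted p of each of the 4 was 0.9999.

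**Figure D4:**
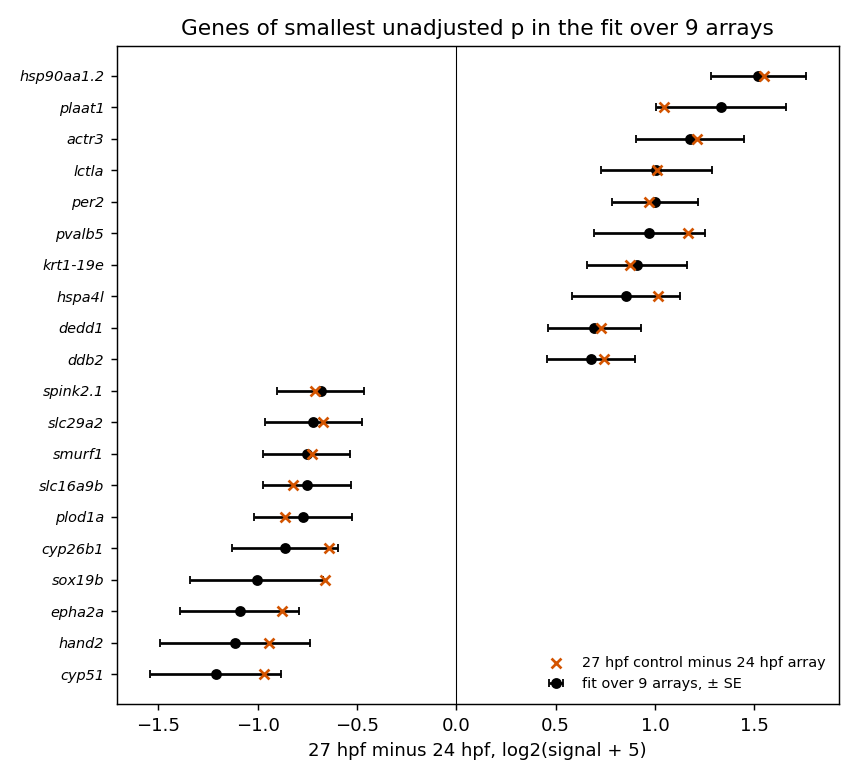
Fitted differences between 27 and 24 hpf (log2) from the limma fit over 9 arrays, with stage and ethanol as terms. Hsp90aa1.2 stands at 1.52 with a p of 1.6e-04, and no probe set passed an adjusted p of 0.05.

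Regulators of the retinal progenitor state were close between the ages. Of 23 kept eye field and progenitor genes, 11 were above 0 and 12 below, with a median of -0.02, which turned to 0.01 when each array was centred on its median. The cyclin ccnd1 had a signal of 1255 at 27 hpf and 1224 at 24 hpf, and sox2 had 525 at 27 hpf and 598 at 24 hpf. Of the 24 measured, 1 was 1.5-fold lower, beside 1.33% of all named genes, and this is not read as a trait of the list. It was the retinal homeobox gene rx2, with 76.2 at 27 hpf and 137 at 24 hpf. Rx2 had 86.5 in the 27 hpf ethanol eyes and 193 in the 30 hpf controls.

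Genes of DNA replication had strong and similar signals at both ages. Of 38 kept, 18 were above 0 and 20 below, with a median of -0.01 (0.02 with each array centred on its median). The helicase gene mcm2 had a signal of 1217 at 27 hpf and 1113 at 24 hpf, and mcm4 had 1007 at 27 hpf and 1110 at 24 hpf. Over the later arrays, 30 of the 38 fell with age. That count is from a separate limma slope over 6 arrays, the control and ethanol eyes at 30, 36 and 48 hpf. Ethanol was a term, and the slope is given as the change per 18 h. In it 9.34% of named genes rose and 10.8% fell at an adjusted p of 0.05 (9.82% and 9.9% of all probe sets fitted). With the ethanol term taken from the treatment characteristic in place of the titles, 17 of the 38 fell, beside 197 of all 9301 probe sets. By that slope mcm2 fell by 1.61 ± 0.18 (log2, SE), with signals of 1208, 965 and 433 in the controls at 30, 36 and 48 hpf. For mitosis genes, 11 of 28 were above 0, and the median of -0.02 became 0.01 with each array centred.

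Genes of newly born neurons were low to moderate in signal and slightly higher at 27 hpf. Of 16 kept retinal ganglion cell and axon genes, 14 were above 0 with a median of 0.12. Gng3, a neuronal G protein subunit, had a signal of 335 at 27 hpf and 319 at 24 hpf, and the alpha tubulin tuba2 had 141 at 27 hpf and 90.1 at 24 hpf. The ganglion cell determinant atoh7 had 59.5 at 27 hpf and 45.4 at 24 hpf, but 358 in the 30 hpf controls. By the slope from 30 to 48 hpf, 11 of the 16 rose and 0 fell, beside 9.34% and 10.8% of all named genes fitted. Among those that rose was the motor and ganglion cell factor isl1a, by 2.13 (log2). Isl1a had 72.4, 74.6, 91.2, 305 and 521 in eyes without ethanol at 24, 27, 30, 36 and 48 hpf. With the treatment characteristic in place of the titles, 6 rose, beside 311 of all 9301 probe sets. Of the 16, 1 was under the brightness limit at both ages.

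Proneural and Notch genes were divided, with 11 of 25 above 0, 14 below and a median of -0.09. The lowest kept member stood at -0.55. On probe sets outside this count, the Notch effector her4.5 had a signal of 56.5 at 27 hpf and 117 at 24 hpf. There nrarpa had 113 at 27 hpf and 207 at 24 hpf. The genes named next were all higher at 27 hpf, so they do not stand for the list. The neurogenic repressor hes6 had a signal of 807 at 27 hpf and 672 at 24 hpf, and the proneural factor ascl1a had 455 at 27 hpf and 334 at 24 hpf. The forebrain bHLH gene neurod6b had 338 at 27 hpf and 176 at 24 hpf, but 128 in 27 hpf ethanol eyes and 95.4 in 30 hpf controls. Its relative neurod6a had 26.3 at 27 hpf and 7.58 at 24 hpf, under the median on both arrays. Emx3, a telencephalon factor, had 266 at 27 hpf and 146 at 24 hpf, and 119 in 27 hpf ethanol eyes.

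The list of brain genes outside the eye held genes that were higher and genes that were lower, with a median difference of 0.21 over 25 kept and of -0.10 over all 34 measured. Lhx5 had a signal of 153 at 27 hpf and 83.0 at 24 hpf, and tbr1b had 158 at 27 hpf and 100.4 at 24 hpf; both are forebrain transcription factors. By contrast, nr2f1a had 260 at 27 hpf and 468 at 24 hpf, and the midbrain-hindbrain gene en1b had 47.9 at 27 hpf and 84.9 at 24 hpf. Of the 34, 4 were 1.5-fold higher and 2 lower, beside 0.771% and 1.33% of all named genes, and the summed signal was 3351 at 27 hpf and 3337 at 24 hpf. What part brain tissue had in the signals of the neuronal genes was not tested.

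Interneuron and glial genes were mixed. The median difference over the 21 measured was 0.08. At 1.5-fold, 3 of the 21 were higher (0.771% of all named genes were): pvalb5, the glutamate transporter slc1a2b, with 256 at 27 hpf and 167 at 24 hpf, and the GABA-synthesis gene gad1b, with 38.7 at 27 hpf and 19.2 at 24 hpf. The carbonic anhydrase cahz, which is also on the list of blood, vessel and immune genes, was lower, with 47.1 at 27 hpf and 75.4 at 24 hpf. Of the 20 kept, 4 passed the brightness limit through later arrays alone, so their count of rises is not read as a result; it was 13, with 2 falls, or 7 and 1 with the treatment characteristic. The bipolar cell factor vsx1 had 81.9 at 27 hpf and 59.0 at 24 hpf, and 922 in the 48 hpf controls.

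Photoreceptor genes were near or below the array medians. Of 26 measured, 9 were in the upper 60% by mean over all arrays, 4 of them below that limit at both 27 and 24 hpf, so they were chosen in part by their later signals and their median of 0.54 is no result. Recoverin gene rcvrn2 had 17.2 at 27 hpf and 7.31 at 24 hpf, below both array medians, and the cone transducin subunit gngt2a had 34.8 at 27 hpf and 20.7 at 24 hpf. Over all 26 the median difference was 0.09, and the summed signal was 285 at 27 hpf and 233 at 24 hpf. The later signals chose them, so no count of rises is given; gngt2a had 39.99, 122 and 725 in the controls at 30, 36 and 48 hpf.

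The 3 bright lens crystallin genes were higher at 27 hpf by less than 1.5-fold. The median difference over the 8 measured was 0.28; 5 of the 8 were dim at both ages. Crybb1 differed by 0.27 (log2), at the signals given above. The beta crystallin cryba4 had 1723 at 27 hpf and 1397 at 24 hpf, and 2410, 2340 and 3210 in the later controls. The gamma crystallin crygmxl2 had 419 at 27 hpf and 317 at 24 hpf, and 833, 1166 and 1640 later. Alpha A crystallin, cryaa, had 17.1 at 27 hpf and 10.6 at 24 hpf, below both medians, and 72.6, 151 and 530 later. Cryaa was under the brightness limit at both ages and was kept through its later signals, so its slope is not read as a result. By the slope from 30 to 48 hpf, crygmxl2 rose by 1.099 ± 0.23 (log2, SE), while crybb1 and cryba4 did not pass. With the treatment characteristic, 1 of the 4 kept crystallin genes rose, beside 311 of all 9301 probe sets.

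The list of lens membrane, cytoskeleton and regulator genes, which also holds genes not particular to the lens, was divided. Of 9 kept, 3 were above 0 and 6 below, with a median of -0.26. The RNA-binding protein celf1 had a signal of 222 at 27 hpf and 320 at 24 hpf on its brighter probe set, with a difference of 0.07 on a dimmer one, and the epithelial cadherin cdh1 had 129 at 27 hpf and 183 at 24 hpf. The beaded filament gene bfsp2 was higher, as the bright crystallins were, with 35.5 at 27 hpf and 28.6 at 24 hpf. It had 94.8, 336 and 764 in the controls at 30, 36 and 48 hpf. Plaat1, an acyltransferase with a role in clearing organelles from the zebrafish lens, had 25.3 at 27 hpf and 9.67 at 24 hpf, both below the medians, and 728 in the 48 hpf controls. A rise from 30 to 48 hpf passed for both bfsp2 and plaat1. Plaat1 was near or under the brightness limit at 27 and 24 hpf and may have been kept through its later signals. Its slope is therefore not read as a result.

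Pigmented epithelium genes were close between the ages, with 5 of 8 kept above 0 and a median of 0.07. The melanosome matrix gene pmelb had a signal of 444 at 27 hpf and 411 at 24 hpf, and otx2b, a regulator of the pigmented layer, had 303 at 27 hpf and 299 at 24 hpf. The visual cycle enzyme rpe65a had 63.7 at 27 hpf and 53.9 at 24 hpf, and 106, 155 and 615 in the controls at 30, 36 and 48 hpf. Over the later arrays 4 of the 8 rose and 0 fell, beside 9.34% and 10.8% of all named genes fitted. With the treatment characteristic in place of the titles 1 of the 8 rose, beside 311 of all 9301 probe sets.

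Housekeeping groups differed little. Of 71 ribosomal protein genes, 67 were above 0 with a median of 0.12, where the brightest 2325 kept probe sets of all kinds had a median of 0.04. With quantile normalization of the 9 arrays, the ribosomal median was 0. Translation factors had 43 of 60 above 0 with a median of 0.09, mitochondrial respiration genes 61 of 86 with 0.08, and proteasome genes 24 of 37 with 0.04. Splicing factors had 33 of 67 above 0 with a median of -0.01, or 0.02 with each array centred. No gene of these 5 lists was 1.5-fold apart.

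**Figure D5:**
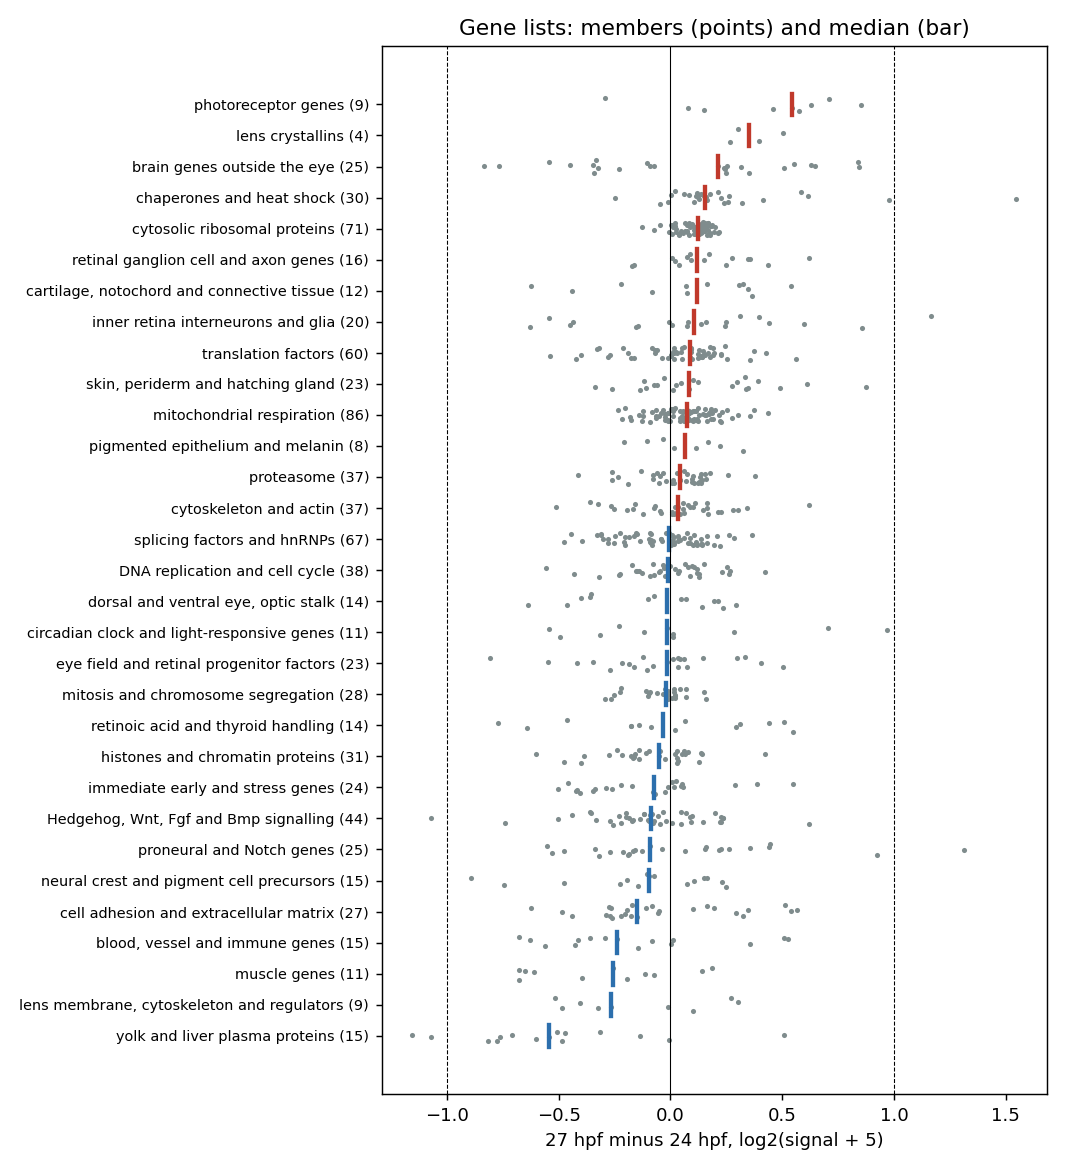
Differences between 27 and 24 hpf (log2, 27 minus 24) of the kept members of each gene list, with each point a gene and the median marked. Medians lie within 0.15 of 0 for most lists; the yolk and liver list is lowest at -0.54 and the photoreceptor list, whose members are mostly below the array medians, highest at 0.54.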

How the data were processed

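Biotin-labelled eye RNA was read on Affymetrix arrays of zebrafish, per the labels' protocols. The authors deposited linear signal intensities, which the submitters' processing notes name as MAS5, with no version in the sources used here. All 9 arrays had a trimmed mean of 125.02 (2% left out at either end) and were used as deposited. Arrays have no read depth, and their number limits the precision.

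Of 15617 probe sets, 115 control features were left out. Signals became log2(signal + 5); 5.59 is the 20th percentile. In the platform annotation 10802 probe sets had 1 symbol, 135 several and 4680 none, and 10718 symbols were looked up by gene identifier; the brightest probe set stood for a gene, and clone and locus names were not used. The upper 60% by mean over 9 arrays (9301 probe sets, mean signal of at least 22.7; 5772 named genes) was kept for fits and list medians. Fits used limma 3.58.1 in R 4.3.3. Groups followed the titles; the treatment characteristic contradicts them for 3 arrays (30 and 36 hpf ethanol, 36 hpf control) and was run as an alternative, with other pseudocounts, filters, folds and normalizations.

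Genes named were the 40 brightest, those called in the comparison, up to 10 of smallest p in each direction, and for each of 32 lists the 4 brightest and 4 most different members; others named were chosen after their values were seen. Members and lists were chosen with earlier results of these data known. No sequence or genome coordinate was used.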

Additional observations from a re-analysis of the deposited data

How the results depend on the processing

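The counts of 14 probe sets higher and 12 lower at 27 hpf depend on how dim probe sets are treated. With a pseudocount of 1 the lower count was 22; with a pseudocount of 20 the counts were 7 higher and 5 lower. Without the brightness filter they were 22 and 26, and with both arrays above their medians 8 and 6. At 1.5-fold they were 112 (0.722%) and 219 (1.41%), and at 3-fold 3 and 1. With each array centred on its median they were 17 and 10, and with quantile normalization 12 and 9. The fit over 9 arrays gave 0 calls in each direction under all 11 alternatives, with a lowest adjusted p between 0.0749 and 0.9999. The slope from 30 to 48 hpf gave 913 probe sets higher (9.82%) and 921 lower (9.9%). Its higher count was 360 in the upper 30%, 311 with the treatment characteristic and 533 with no ethanol term. Its lower count was 1420 with each array centred on its median (831 higher), 197 with the treatment characteristic, 558 with control arrays only and 420 with no ethanol term; without a filter, 1277 were higher and 778 lower. The causes of these changes were not tested. List medians within 0.03 of 0 changed sign with array centring or quantile normalization. No paired analysis was possible because each condition has 1 array and the labels carry no replicate numbers.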

Other observations

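Among genes not described above, clock and light-responsive genes were mixed: of 11 kept, 5 were above 0 and 6 below, with a median of -0.02 (0.01 with each array centred). Of 24 measured, per2 and the clock gene bmal2 were 1.5-fold higher, beside 0.771% of all named genes. Bmal2 had a signal of 145 at 27 hpf and 87.1 at 24 hpf, but 85.6 in 27 hpf ethanol eyes. A dimmer probe set of each gene, below the array medians, differed by -0.03 for bmal2 and -0.11 for per2 (log2). The DNA glycosylase neil1, picked after its values were seen, had 480 in control and 470 in ethanol eyes at 27 hpf, against 268 at 24 hpf, and fell by 1.46 ± 0.25 (log2, SE) per 18 h over the later arrays.

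Signalling genes lay slightly below 0. Of 44 kept genes of the Hedgehog, Wnt, Fgf and Bmp pathways, 29 were below 0 with a median of -0.09. Of the 59 measured, gli2a was the member that was 2-fold lower, beside 0.0612% of all named genes. The Wnt inhibitor sfrp5 had a signal of 941 at 27 hpf and 885 at 24 hpf, and then 682, 193 and 51.5 in the controls at 30, 36 and 48 hpf. Retinoic acid genes had 7 of 14 on each side of 0. The retinol receptor stra6 had 218 at 27 hpf and 148 at 24 hpf, and the 4 probe sets of the retinoic acid hydroxylase cyp26b1 differed by -0.64, -0.40, -0.10 and -0.02 (log2). Of 17 measured neural crest and pigment cell precursor genes, gch2 and sox10 were 1.5-fold lower, beside 1.33% of all named genes. Sox10 had 28.8 at 27 hpf and 51.6 at 24 hpf.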
